A study of Mus musculus with 8 samples.

Results

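The 10 purinergic receptor genes described here were chosen by name from the table of counts, and all 10 were found among its 24421 genes. They are the 6 P2X receptors P2rx2, P2rx3, P2rx4, P2rx5, P2rx6 and P2rx7 and the 4 P2Y receptors P2ry1, P2ry2, P2ry12 and P2ry14. All 10 passed the filter on low counts that left 17328 genes to test, with at least 134 counts each in every library. RNA was sequenced from the left L3 to L5 dorsal root ganglia (DRG) of wild-type C57BL/6J mice, in 2 libraries per time point, each made from a pool of 2 to 3 mice. The 0d libraries came from mice before injection, and the 1d, 3d and 30d libraries came from mice taken 1, 3 and 30 days after 20 µl of 1% carrageenan, a seaweed polysaccharide that inflames tissue, was injected into the left hind paw. The series' description gives the age at injection as 8 weeks and the study's methods give a range that begins there, no vehicle-injected group was analysed here, and no transgene or deletion was used. The 30d mice were therefore also older than the 0d mice, and age and time after injection cannot be told apart.

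Purinergic receptors sense nucleotides outside the cell, chiefly ATP, which damaged or active cells release. P2X receptors are ion channels, assembled from several subunits, that open when ATP binds and let sodium and calcium into the cell, whereas P2Y receptors couple nucleotides to G proteins. In the ganglion, P2rx3 is the best known of them, as the subunit of small nonpeptidergic pain-sensing neurons, where it forms channels alone or together with P2rx2. P2rx4, P2rx7, P2ry12 and P2ry14 are also found on immune or glial cells, and whole ganglia hold such cells beside the neurons.

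The totals of the 8 libraries lay between 44123208 and 73580338 counts, and single receptor genes held up to 26985 of them, for P2rx3 in a 3d library. The cell type label is DRG neurons, but markers of satellite glia summed to 3333 to 3974 CPM (counts divided by the TMM-scaled library size) and Schwann cell markers to 6149 to 11827 CPM, beside 10495 to 11372 CPM for 10 genes of all neurons. The libraries were therefore read as whole ganglia, in which fewer cells of a type and less RNA per cell cannot be told apart. Replicates differed by more than sampling noise at every time point, the chi-square divided by its degrees of freedom being 7.19 at 3d and 25.4 at 30d, where the pools were the least alike. Markers of other cells varied widely between pools, from 28.7 to 181 CPM for skeletal muscle, 147 to 548 CPM for red blood cells and 47.3 to 240 CPM for neutrophils. The red blood cell sum includes Hba-a1 and Hba-a2, which had identical mean CPM at every time point, so the same values entered it more than once. Against 0d, 0 of 11 muscle markers and 7 of 7 neutrophil markers were fitted higher at each later time point. The part of these cells in the receptor values was not tested. The p-values below measure the spread between pools of mice.

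On mm10, 3 of the receptor genes lie on chromosome 5. P2rx7 spans chr5:122643911-122691432 on the plus strand and P2rx4 spans chr5:122707557-122729042 on the same strand, 16124 bases further on, while P2rx2 lies apart from them at chr5:110339812-110343035 on the minus strand. P2ry14 at chr3:59114623-59153492 and P2ry12 at chr3:59216271-59262831 are also neighbours, both on the minus strand and 62778 bases apart, and both lie within the span of Med12l, which is on the plus strand. P2ry1 lies at chr3:61002785-61008982 on the plus strand. P2rx3 lies at chr2:84996552-85035834 and P2ry2 at chr7:100996568-101012053, both on the minus strand. P2rx5 at chr11:73160530-73172687 and P2rx6 at chr16:17561885-17572012 are on the plus strand. Counts covered exons only, and 9 of the 10 receptors shared no exon base with another gene of the table. P2ry14 shared 74 bases, 2.88% of its counted length, with F630111L10Rik. Because reads were counted without regard to strand, P2ry1 needs a further limit. Of the 50-base words of the P2ry1 transcript, 24.6% were also in transcripts of other GENCODE genes. Gm37035, which is not in the table, shared the most of them, and reads of such words cannot be told apart. Of the P2rx6 transcript, 9.66% of the words were also in other genes, with Slc7a4 sharing the most. For the other 8 receptors the largest such share was 2.16%, for P2rx4.

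P2rx3 was by far the most abundant of the receptors. Per kilobase of exon, its level at 0d was 82.9 ± 6.36 CPM (SD, n = 2), 4.90 times that of the next receptor, and 94.97% of tested genes had a lower level. P2rx4 followed at 16.9 ± 0.673 and P2ry1, a receptor for ADP, at 16.3 ± 1.06 CPM per kilobase. These neighbours were not separated, since P2rx4 was above P2ry1 in 5 of 8 libraries. P2rx6, a subunit that forms channels mainly together with other P2X subunits, came next at 12.4 ± 0.288, and P2ry2, a receptor for ATP and UTP, at 8.47 ± 0.372 CPM per kilobase. P2rx5 at 5.20 ± 0.196 and P2rx7 at 4.87 ± 0.0972 CPM per kilobase formed the next pair. P2rx5 was above P2rx7 in every one of the 8 libraries, but the ranges of both genes over the libraries overlapped.

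The lowest levels per kilobase at 0d were those of P2ry12, the ADP receptor that marks microglia in the central nervous system, at 2.60 ± 0.234 CPM, of P2rx2 at 1.73 ± 0.0253 CPM and of P2ry14, a receptor for UDP-glucose, at 1.14 ± 0.0684 CPM. P2ry12 was above P2rx2 in 7 of 8 libraries, so this order was not the same in every library. Apart from these 3 pairs, neighbours in the order kept apart over all 8 libraries. Without division by length, P2ry1 ranked 2 and P2rx4 ranked 3, and P2rx7, whose counted exons span 5514 bases, ranked 5, ahead of P2ry2 at 6 and P2rx5 at 7.

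**Figure D1:**
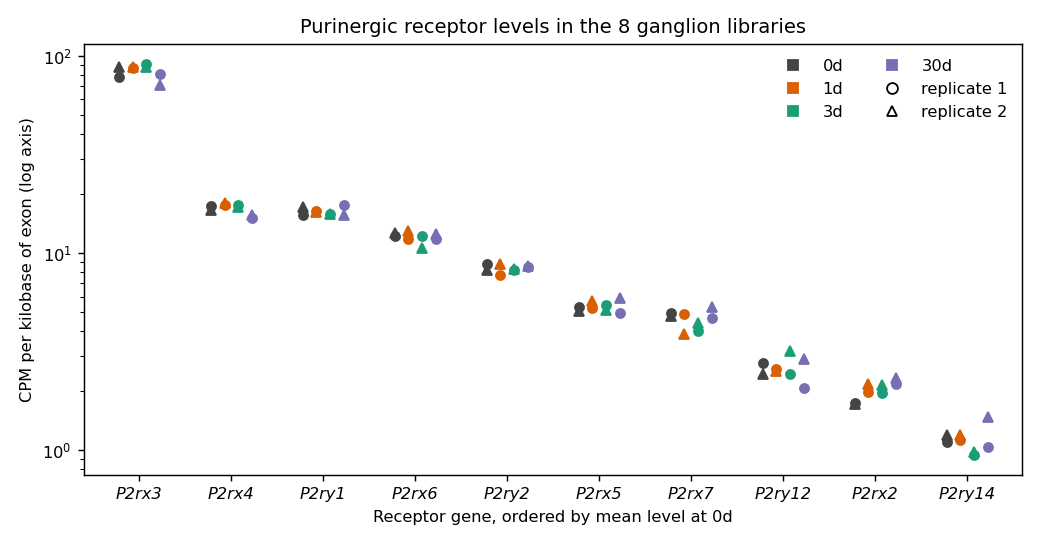
Level of each receptor gene in CPM per kilobase of exon on a log axis, with 1 point per library, coloured by time point. P2rx3 sits between 71.2 and 91.2 in all 8 libraries, above every value of the other receptors.

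P2rx3 gave between 63.2% and 69.1% of the summed level per kilobase of the 6 P2X genes, with the highest share in a 3d library and the lowest in a 30d library. P2rx2, the subunit it can pair with, was far lower, so that the level of P2rx3 per kilobase was 30.6 to 51.2 times that of P2rx2. This ratio averaged 48.1 ± 4.39 in the 0d, 42.3 ± 2.47 in the 1d, 43.97 ± 3.73 in the 3d and 33.9 ± 4.62 in the 30d libraries (SD, n = 2), and both 30d libraries, at 37.1 and 30.6, were below the other 6. Among the P2Y genes, P2ry1 gave between 54.7% and 60.1% of the summed level per kilobase. The summed P2X level ran from 113 to 132 and the summed P2Y level from 27.3 to 29.1 CPM per kilobase.

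No receptor gene passed the threshold at any time point. The genes were tested with edgeR's quasi-likelihood test in 6 comparisons between time points and in 1 test of any difference among the 4 time points, at a Benjamini-Hochberg adjusted p under 0.05 over all 17328 genes. Against 0d, 0 of 10 receptors were called at 1d, where 0.346% of all tested genes were called, 0 at 3d, where the share was 0.219%, and 0 at 30d, where it was 0.0231%. Between the days after injection, 0 of 10 were called at 3d against 1d (0.289% of all genes), at 30d against 1d (0.571%) and at 30d against 3d (0.935%), and 0 of 10 in the test of any difference (1.02%). At an unadjusted p under 0.05, edgeR gave 0 receptors at 1d, 3d and 30d against 0d, where 4.47%, 5.94% and 12.3% of all tested genes passed, and 0 at 3d against 1d, where 4.24% did. It gave 2 at 30d against 1d (P2rx3 and P2rx4), where 11.7% of all tested genes passed, 3 at 30d against 3d (P2rx3, P2rx4 and P2rx7), where 13% did, and 2 in the test of any difference (P2rx3 and P2rx4), where 11% did. DESeq2 called 0 receptors in the comparisons with 0d and 1, P2rx3, at 30d against 3d and in its test of any difference.

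The median log2 fold change of the 10 receptors was 0.0069 at 1d, -0.0099 at 3d and 0.016 at 30d against 0d, where that of all tested genes was -0.0032, -0.0021 and -0.00040. The median size of the change, without its sign, was 0.047, 0.11 and 0.065 for the receptors and 0.076, 0.081 and 0.11 for all tested genes. Both libraries of a time point lay above both 0d libraries, or both below them, for 2 receptors at 1d, against 31.9% of all tested genes, for 4 at 3d, against 39.5%, and for 2 at 30d, against 39.6%. At 30d against 3d the libraries did not overlap for 6 of 10 receptors, of which 4 were higher and 2 lower at 30d, against 46.4% of all tested genes. The comparisons with 0d share the 0d libraries, and those with 3d share the 3d libraries.

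**Figure D2:**
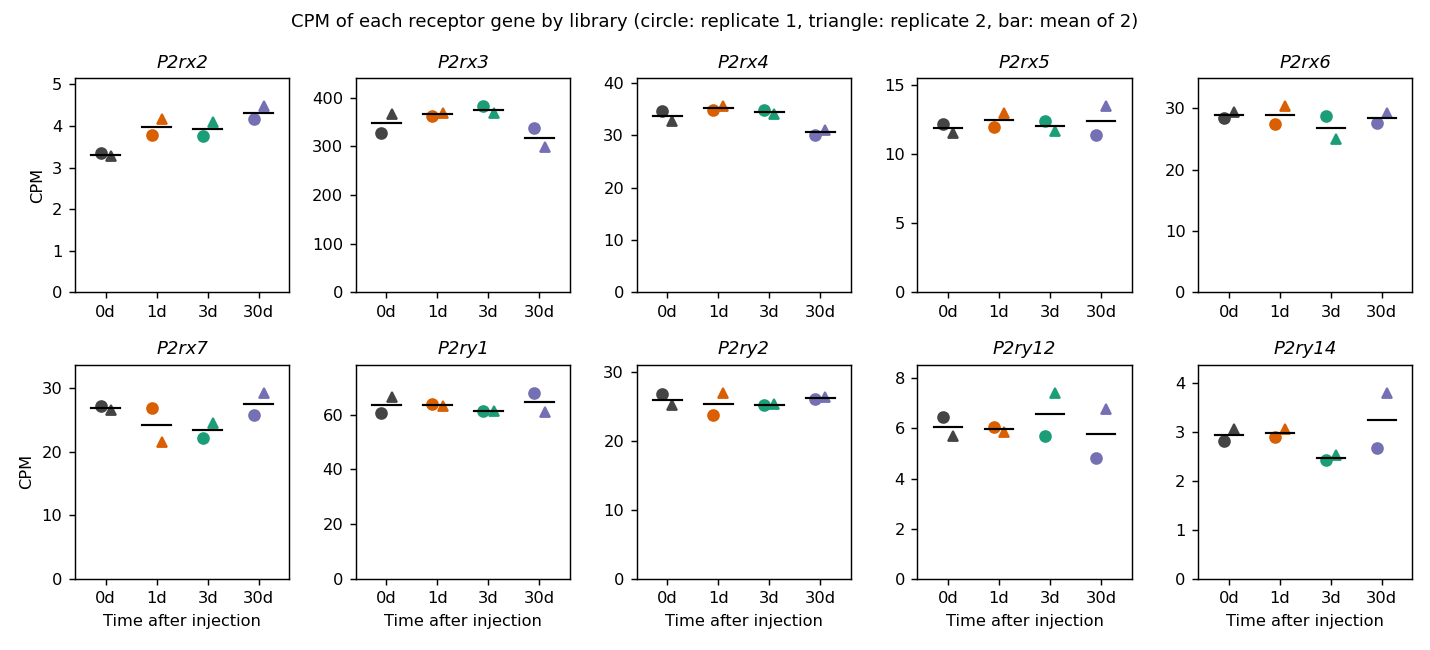
CPM of each receptor gene by time point, with a circle for replicate 1, a triangle for replicate 2 and a bar for their mean, and axes that start at 0. P2rx3 and P2rx4 sit lower at 30d than at 1d and 3d, and P2rx2 is above both 0d libraries in the 6 libraries after injection.

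P2rx3 had the smallest adjusted p of the receptors at 30d against 1d and at 30d against 3d. It measured 328 and 366 CPM at 0d, 363 and 369 CPM at 1d, 382 and 369 CPM at 3d, and 337 and 299 CPM at 30d. The 3d libraries were above both 0d libraries and the 30d libraries were below all 1d and 3d libraries, while the 0d libraries spanned most of the distance between them. Against 3d, P2rx3 at 30d was fitted 15.4% lower, a log2 fold change of -0.24 ± 0.060 (SE) with a 95% interval of -0.37 to -0.11, and did not pass the threshold (edgeR, adjusted p = 0.1002). Against 1d it was fitted 13.2% lower at 30d (log2 fold change -0.20 ± 0.061, adjusted p = 0.223), and against 0d 8.47% lower (-0.13 ± 0.060, adjusted p = 0.418). The fitted differences from 0d were 0.076 ± 0.061 on the log2 scale at 1d (adjusted p = 1.00) and 0.11 ± 0.060 at 3d (adjusted p = 0.900). With 1 library left out, the differences from 0d kept their sign but ranged from 0.0023 to 0.16 at 1d, from 0.038 to 0.19 at 3d and from -0.22 to -0.043 at 30d.

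The P2rx3 difference between 30d and 3d lay near the threshold, and its call moved with the processing although its direction did not. It passed with DESeq2 (adjusted p = 0.00644) and with no filter on low counts in edgeR (0.0476), and not with limma-voom (0.0835) or in an edgeR fit of these 4 libraries without the others (0.0839). It passed when 30d replicate 1 was left out, with a log2 fold change of -0.33 (edgeR adjusted p = 0.0084), and when 0d replicate 1 (0.0319) or 0d replicate 2 (0.0314) was left out, and not when 30d replicate 2 was left out, with -0.16 (0.300). It also did not pass without 3d replicate 1 (0.722), 3d replicate 2 (0.479), or either 1d replicate (0.163 each). Without 30d replicate 1, P2rx3 was also called at 30d against 1d (adjusted p = 0.0199) and in the test of any difference (0.0239), which DESeq2 called too, with all libraries (0.0178). 30d replicate 1 had the highest sums of neutrophil markers, 240 CPM, and red blood cell markers, 548 CPM, and the lowest sum of Schwann cell markers, 6149 CPM, of the 8 libraries. 30d replicate 2 had the lowest sums of skeletal muscle markers, 28.7 CPM, and endothelial markers, 112 CPM. The part of these cells in the P2rx3 values was not tested.

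**Figure D3:**
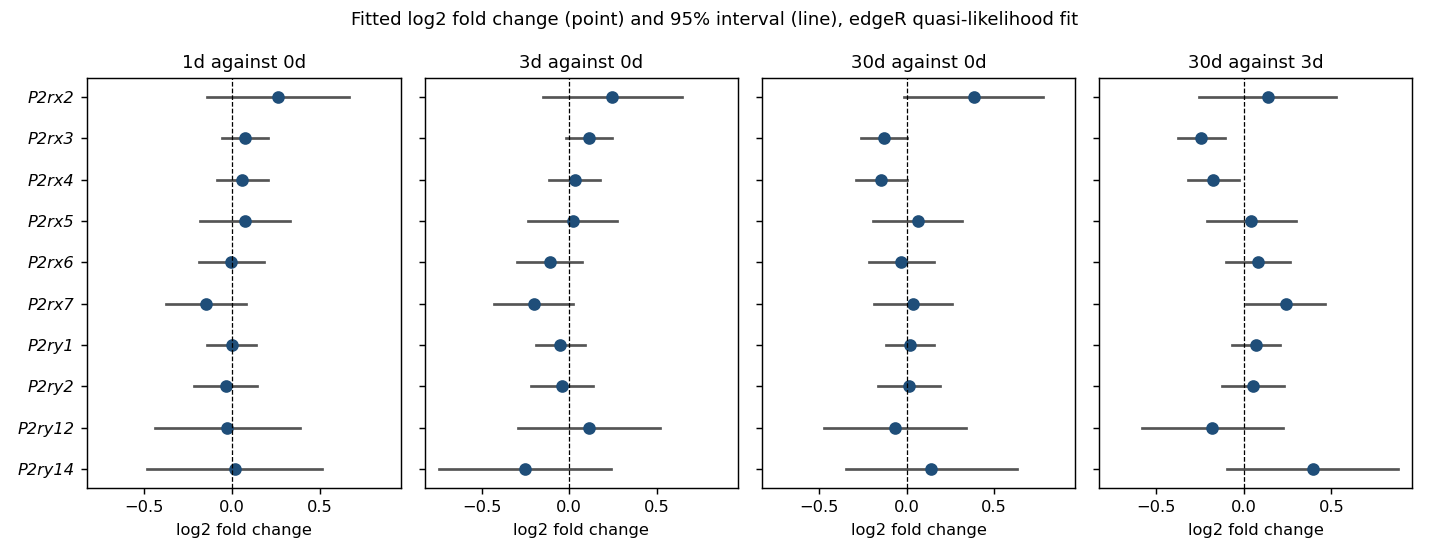
Fitted log2 fold change (point) and its 95% interval (line) for each receptor in the 3 comparisons with 0d and at 30d against 3d. In the comparisons with 0d every interval includes 0, and at 30d against 3d the intervals of P2rx3, P2rx4 and P2rx7 do not, before adjustment over all genes.

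The genes that mark the same neurons were read beside P2rx3. The 9 markers of nonpeptidergic nociceptors summed to 2591 and 2794 CPM at 0d, 2825 and 2804 CPM at 1d, 2781 and 2749 CPM at 3d, and 2702 and 2452 CPM at 30d. The 30d replicate with the lowest P2rx3 also had the lowest marker sum, and the 30d libraries were below the 1d and 3d libraries in both measures. At 30d against 3d, 8 of the 9 markers were fitted lower, with a median of -0.056 over the list. Of the 9, 1 was called, beside 0.935% of all tested genes. It was Ret, the receptor tyrosine kinase for GDNF family ligands (log2 fold change -0.22 ± 0.048, edgeR adjusted p = 0.0477). Mrgprd, which also marks these neurons, had a log2 fold change of 0.082 (adjusted p = 0.436). Ret held the largest part of the marker sum, with 1050 and 1021 CPM at 3d and 934 and 845 CPM at 30d. Of the 9 markers, only Ret and Tmem45b had both 30d libraries below both 3d libraries. As a share of the marker sum, P2rx3 was 12.7% and 13.1% in the 0d libraries, 12.8% and 13.2% in the 1d libraries, 13.7% and 13.4% in the 3d libraries, and 12.5% and 12.2% in the 30d libraries, which were the lowest. The part of these neurons' share of the tissue in the P2rx3 values was not tested. A list of 6 genes for peptidergic nociceptors, which also holds Th, better known from touch-sensitive C fibres, was read as well. It summed to 1903 and 1925 CPM at 3d and 1581 and 1552 CPM at 30d. Of the 6, 2 were called lower at 30d than at 3d, beside 0.935% of all tested genes called. In the same comparison 2 of 6, Th among them, were fitted higher. Calca, the precursor of the neuropeptide CGRP, fell by 0.43 on the log2 scale (edgeR adjusted p = 0.00201) and Tac1, the precursor of substance P, by 0.28 (0.0110). Calca was also called higher at 3d than at 0d (0.32, adjusted p = 0.0237) and was not called at 30d against 0d (-0.10, adjusted p = 0.451). Their part in the P2rx3 values was likewise not tested. The 10 genes of all neurons summed to 11029 and 10990 CPM at 3d and 10495 and 10646 CPM at 30d, with 0 of 10 called between them by edgeR.

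**Figure D4:**
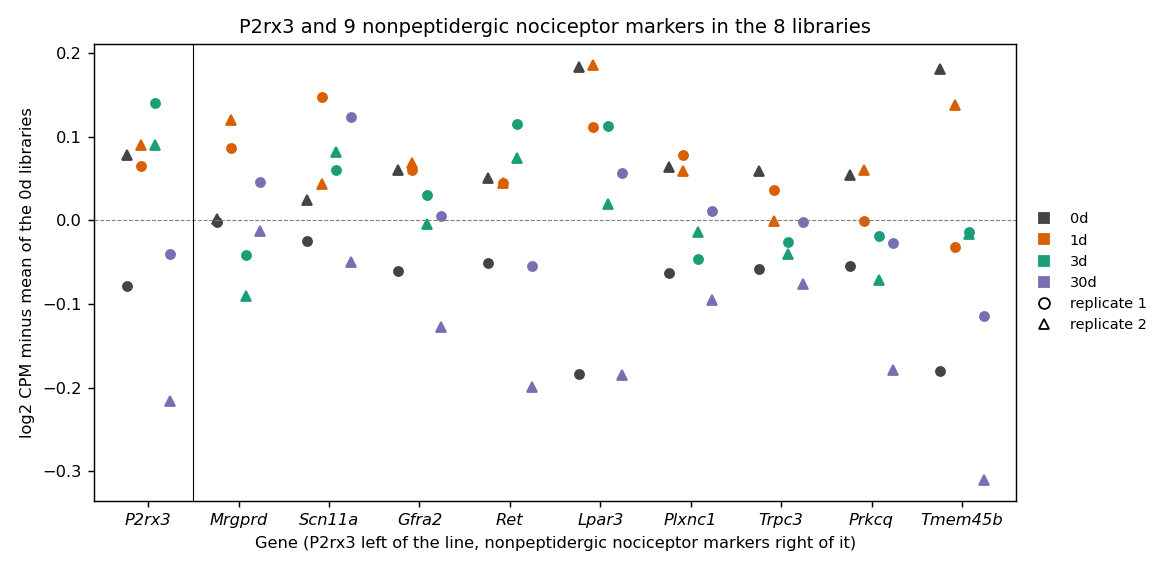
Log2 CPM of P2rx3 and of 9 nonpeptidergic nociceptor markers, minus each gene's mean over the 0d libraries, with 1 point per library coloured by time point. The second 30d library is the lowest of the 8 for P2rx3 and for Ret, and both 30d libraries are below both 3d libraries for P2rx3 and Ret.

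The tested genes whose log2 CPM followed P2rx3 most closely over the 8 libraries, other receptors left out, were Fam96a (Pearson r = 0.991), Pde12 (0.990) and Ret (0.990). Their mean CPM was 12.4 for Fam96a, 24.7 for Pde12 and 974 for Ret. At 30d against 3d the log2 fold changes were -0.21 ± 0.11 for Fam96a (edgeR adjusted p = 0.454) and -0.27 ± 0.085 for Pde12 (0.171). For P2ry12, the genes most alike were Hecw1 (r = 0.944), Bmpr1a (0.937) and Polr2g (0.933). These are the highest correlations among all tested genes, over points that share library, depth and tissue make-up, and they are given as a description.

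P2rx2 was low but was the P2X gene with the largest fitted differences from 0d. It measured 3.35 and 3.28 CPM at 0d, 3.78 and 4.17 CPM at 1d, 3.76 and 4.09 CPM at 3d, and 4.16 and 4.47 CPM at 30d. All 6 libraries after injection were above both 0d libraries, which differed from each other by little. The log2 fold changes against 0d were 0.26 ± 0.19 at 1d, 0.25 ± 0.19 at 3d and 0.38 ± 0.19 at 30d, with edgeR adjusted p of 1.00, 0.986 and 0.422. The 95% interval at 30d ran from 1.06% lower to 71.8% higher. P2rx2 rested on 175 to 313 counts per library, so its intervals were among the widest.

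P2rx4, a channel of neurons, macrophages and microglia, was lowest at 30d. It measured 34.7 and 32.8 CPM at 0d, 34.7 and 35.5 CPM at 1d, 34.8 and 34.1 CPM at 3d, and 30.0 and 31.0 CPM at 30d. Both 30d libraries were below the other 6, and libraries of a time point differed by at most 1.06 times. The fitted log2 fold change at 30d was -0.14 ± 0.068 against 0d (edgeR adjusted p = 0.417), -0.20 ± 0.069 against 1d (0.272) and -0.17 ± 0.068 against 3d (0.291), and no alternative called it.

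P2rx7, the channel that responds to high ATP and is known from macrophages and glia, had its lowest values at 1d and 3d. It measured 27.2 and 26.5 CPM at 0d, 26.9 and 21.5 CPM at 1d, 22.2 and 24.5 CPM at 3d, and 25.8 and 29.2 CPM at 30d. Both 3d libraries were below both 0d and both 30d libraries, and the 1d libraries spanned most of the range. The fitted change was 13.1% lower at 3d than at 0d (log2 fold change -0.20 ± 0.10, edgeR adjusted p = 0.879) and 18.0% higher at 30d than at 3d (0.24 ± 0.10, adjusted p = 0.349). With 1 library left out, these log2 fold changes ranged from -0.28 to -0.13 and from 0.14 to 0.33. Per kilobase, P2rx7 was between 0.218 and 0.341 times P2rx4, with the highest ratios, 0.310 and 0.341, in the 30d libraries.

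P2rx5 and P2rx6 showed no separation of the time points. P2rx5 ran from 11.4 CPM, in a 30d library, to 13.5 CPM, in the other 30d library, so that a single time point held the whole range. Its fitted log2 fold changes against 0d were 0.073 ± 0.12 at 1d, 0.021 ± 0.12 at 3d and 0.065 ± 0.12 at 30d, and the first ranged from 0.013 to 0.13 with 1 library left out. P2rx6 measured 28.5 and 29.5 CPM at 0d, 27.5 and 30.3 CPM at 1d, 28.7 and 25.0 CPM at 3d, and 27.6 and 29.3 CPM at 30d. Its interval at 30d against 0d ran from 13.8% lower to 11.4% higher.

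Among the P2Y receptors, P2ry1 and P2ry2 were the most even. P2ry1 measured 60.6 and 66.5 CPM at 0d, 63.9 and 63.1 CPM at 1d, 61.3 and 61.4 CPM at 3d, and 68.1 and 60.9 CPM at 30d. The largest of the 8 values was 1.12 times the smallest, and the time points overlapped except that both 3d libraries were below both 1d libraries. Its 95% interval at 30d against 0d ran from 7.83% lower to 11.7% higher (edgeR adjusted p = 0.923). P2ry2 measured 26.8 and 25.2 CPM at 0d, 23.7 and 27.0 CPM at 1d, 25.1 and 25.3 CPM at 3d, and 26.1 and 26.3 CPM at 30d. The 1d libraries were its lowest and its highest, and the interval at 30d against 0d ran from 10.8% lower to 14.03% higher.

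P2ry12 and P2ry14 were low and had the largest gaps between replicates, both at 30d. P2ry12 measured 6.46 and 5.69 CPM at 0d, 6.06 and 5.86 CPM at 1d, 5.70 and 7.43 CPM at 3d, and 4.80 and 6.78 CPM at 30d. The 30d libraries differed by 1.41 times, and each time point overlapped with 0d. P2ry14 measured 2.82 and 3.06 CPM at 0d, 2.89 and 3.06 CPM at 1d, 2.42 and 2.52 CPM at 3d, and 2.68 and 3.80 CPM at 30d. Both 3d libraries were below all other libraries, and the 30d libraries differed by 1.42 times. The log2 fold change of P2ry14 was -0.25 ± 0.23 at 3d against 0d (edgeR adjusted p = 0.999) and 0.39 ± 0.23 at 30d against 3d (0.486), on 134 to 266 counts per library. With 1 library left out, the latter ranged from 0.12 to 0.62.

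Because P2rx4, P2rx7, P2ry12 and P2ry14 are also genes of immune cells, 16 macrophage markers were read beside them. They summed to 171 and 150 CPM at 0d, 180 and 178 CPM at 1d, 163 and 164 CPM at 3d, and 183 and 168 CPM at 30d, and none of the 16 was at 0 in every library. At 3d against 0d, 1 of 16 was called, beside 0.219% of all tested genes, while 10 of 16 were fitted higher, with a median of 0.027. The called gene was Cx3cr1, the fractalkine receptor, which fell by 1.02 on the log2 scale (edgeR adjusted p = 0.00794). At 30d against 3d, 0 of 16 were called by edgeR, beside 0.935% of all tested genes, with a smallest adjusted p of 0.0981. The sum of the 8 satellite glia markers was 3840 and 3832 CPM at 3d and 3333 and 3496 CPM at 30d. Of these 8 markers, 1 was called, Apoe, the lipid carrier apolipoprotein E. It was lower at 30d than at 3d (log2 fold change -0.23 ± 0.039, edgeR adjusted p = 0.0128), than at 1d (0.0213) and than at 0d (0.0322). The shares of all tested genes called there were 0.935%, 0.571% and 0.0231%. At 30d against 3d, 1 of 8 was fitted higher. P2rx4 and the satellite glia sum were both lower at 30d than at 3d, and the part of these cells in the P2rx4 values was not tested. The Schwann cell sum was 11827 CPM in 1 of the 0d libraries and 6149 CPM in 1 of the 30d libraries, against 8541 to 9945 CPM in the other 6.

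The other genes of the pathway were described by 5 lists with 40 genes, of which 37 were tested. None of the 37 was called by edgeR in any of the 6 comparisons, where 0.0231% to 0.935% of all tested genes were called. At an unadjusted p under 0.05, edgeR gave 1 of them at 1d (4.47% of all tested genes), 5 at 3d (5.94%) and 6 at 30d (12.3%) against 0d, 2 at 3d against 1d (4.24%), 4 at 30d against 1d (11.7%) and 5 at 30d against 3d (13%). The median log2 fold change of the 37 was 0.024 at 1d, 0.0015 at 3d and 0.0027 at 30d against 0d, with 20, 19 and 19 of them fitted higher.

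The remaining P2 receptors had few counts. Gpr17, a receptor related to the P2Y family, had a mean of 3.53 CPM over the libraries and P2ry6, a UDP receptor, 2.27 CPM, and the other 3 tested, P2rx1, P2ry10 and P2ry13, were below 1 CPM. P2ry4 was left out by the filter and P2ry10b was not analysed here. Among the adenosine receptors, which sense the breakdown product of ATP, Adora1 led with 134 CPM and Adora2a had 6.22 CPM. Adora1 averaged 134 ± 3.76 CPM in the 0d and 125 ± 7.98 CPM in the 30d libraries (SD, n = 2), a log2 fold change of -0.10 (edgeR adjusted p = 0.428).

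The enzymes that break down nucleotides outside the cell ran from no count to 480 CPM in their means over the libraries. Acpp, the prostatic acid phosphatase that makes adenosine from AMP in nociceptors, had the highest mean by CPM, and per kilobase of exon its level at 0d was 79.8 CPM, beside 82.9 for P2rx3. Entpd3, which removes phosphates from ATP and ADP, had 153 CPM. Of the 12 tested enzymes, 6 were fitted higher at 30d than at 0d, with log2 fold changes between -0.29 and 0.70. Entpd8 had no count in any library.

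Among the 9 genes of channels and carriers that can release ATP, the pannexin Panx2 had 132 CPM and Lrrc8a, a subunit of volume-regulated anion channels, 93.6 CPM. Gja1, which encodes the connexin of satellite glia and astrocytes, had the smallest adjusted p of the 37 genes in each comparison with 0d. Its mean was 35.2 ± 0.0873 CPM in the 0d, 28.4 ± 0.703 CPM in the 1d, 29.8 ± 0.215 CPM in the 3d and 28.9 ± 0.795 CPM in the 30d libraries (SD, n = 2). Its log2 fold changes of -0.31 ± 0.071, -0.24 ± 0.069 and -0.29 ± 0.070 did not pass the threshold (edgeR adjusted p = 0.120, 0.363 and 0.130). The satellite glia sum, of which Apoe held the largest part, was also lower than at 0d in every later library. Of the 8 satellite glia markers, 1, 2 and 1 were fitted higher than 0d at 1d, 3d and 30d. The part of these cells in the Gja1 values was not tested. The 7 genes that take up or convert adenosine were led by the kinase Adk, with 188 CPM, and the transporter Slc29a4, with 70.5 CPM.

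**Figure D5:**
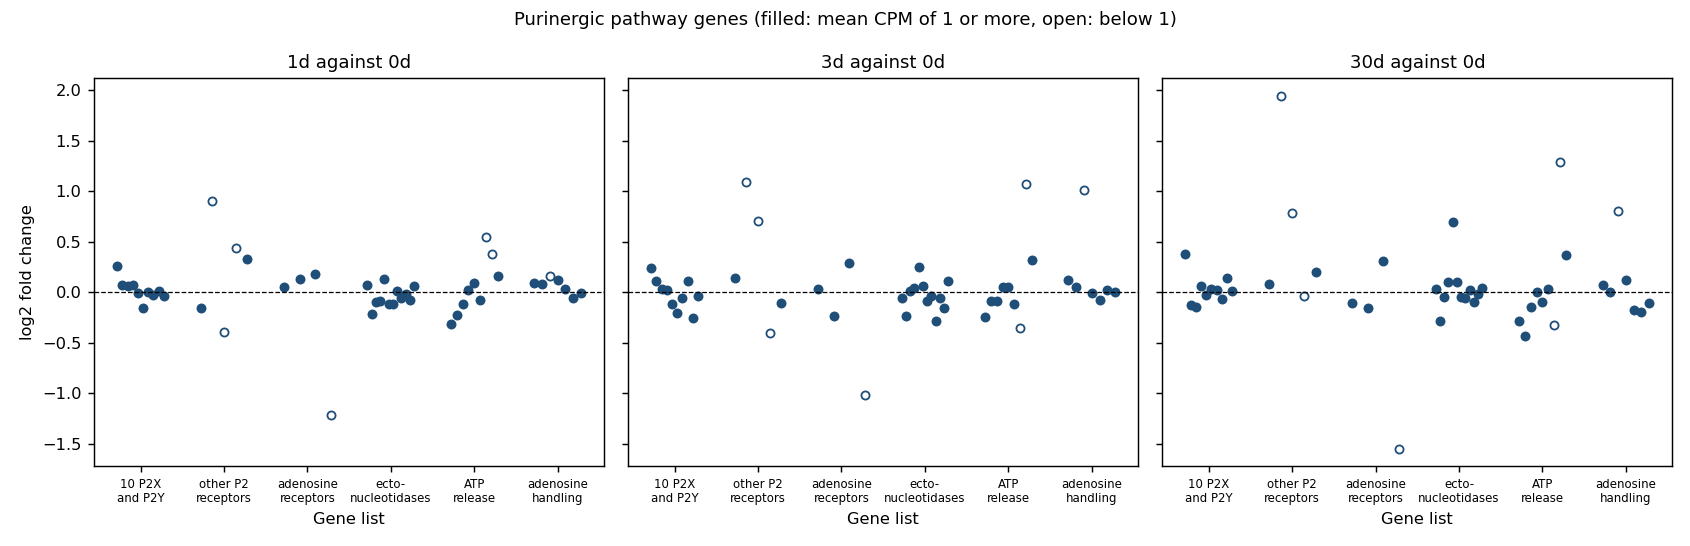
Fitted log2 fold change against 0d of the 10 receptors and of the 37 other tested genes by list, with filled points for a mean CPM of 1 or more and open points below 1. The 10 receptors lie between -0.25 and 0.38 in the 3 comparisons, and the changes above 1 or below -1 belong to genes with a mean below 1 CPM.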

How the data were processed

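Total RNA of mouse DRG was sequenced in 8 libraries. Per the submitters' processing notes and the file header, the authors used cutadapt 2.10 for trimming, STAR 2.7.5a for alignment to mm10 and featureCounts 2.0.1 for counting on a UCSC annotation, without strand, giving a read to each gene it overlapped. The deposited values are raw counts per gene, with exon lengths, and columns were matched to samples by name.

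All libraries were fitted together in edgeR 4.0.16 (R 4.3.3) with filterByExpr, TMM scaling and robust quasi-likelihood F-tests, with time point as the only term and p-values adjusted by Benjamini-Hochberg over all tested genes. Standard errors were derived from the log2 fold change and F. Log2 CPM used a prior count of 2. Alternatives were other scalings and filters, DESeq2 1.42.0, limma-voom (limma 3.58.1), no robust estimation, fits of the compared groups, a replicate block, a threshold of 0.10 and each library left out. Scripts were tested on simulated data. With 2 libraries per group no permutation test of a pair of time points can pass 0.05, and none was run. Overlapping genes were read from the deposited exons and shared words from GENCODE vM21.

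The receptors and gene lists were chosen with earlier results of these data known. The rule was to name all 10 receptors, the most abundant pair of genes by CPM in each pathway list with any called gene, and the 3 genes most correlated with P2rx3 and P2ry12. Mrgprd, Tmem45b, Calca, Tac1, Th, Apoe, Cx3cr1, Gja1, Hba-a1, Hba-a2 and the low or untested pathway genes were named after their values were seen.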

Additional observations from a re-analysis of the deposited data

How the results depend on the processing

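Across 18 other settings, no receptor but P2rx3 was called in any comparison. P2rx3 was called at 30d against 3d (1 receptor in place of 0) with no filter on low counts and with DESeq2, and DESeq2 also called it in the test of any difference (1 in place of 0). Leaving out 1 library gave 0 to 1 receptors called at 30d against 3d, at 30d against 1d and in the test of any difference, and 0 in the other 4 tests, with P2rx3 as the gene called each time. The causes were not tested. P2ry1 at 1d, with a log2 fold change of -0.0011 against 0d, changed sign to 0.00034 with RLE size factors, 0.00038 with no filter, 0.0017 with the CPM filter and 0.00030 with DESeq2. With 1 library left out, some log2 fold changes changed sign, none of them called, with these ranges: at 1d against 0d P2rx6 (-0.078 to 0.065), P2rx7 (-0.32 to 0.0024), P2ry1 (-0.063 to 0.067), P2ry12 (-0.12 to 0.070), P2ry14 (-0.042 to 0.078), P2ry2 (-0.13 to 0.054), at 3d against 0d P2rx4 (-0.0089 to 0.072), P2rx5 (-0.020 to 0.063), P2ry1 (-0.11 to 0.018), P2ry12 (-0.090 to 0.29), P2ry2 (-0.085 to 0.0048), at 30d against 0d P2rx5 (-0.063 to 0.18), P2rx6 (-0.074 to 0.012), P2rx7 (-0.060 to 0.12), P2ry1 (-0.063 to 0.10), P2ry12 (-0.34 to 0.16), P2ry14 (-0.14 to 0.37), P2ry2 (-0.034 to 0.057), at 30d against 3d P2rx5 (-0.084 to 0.16), P2rx6 (-0.017 to 0.19), P2ry1 (-0.012 to 0.15), P2ry12 (-0.45 to 0.043). The order of levels without length is given above for P2rx4, P2rx5, P2rx7, P2ry1 and P2ry2.

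The replicate numbers of the labels were shared by the groups, and correlations of deviations between groups lay between -0.014 and 0.044. These values cannot show whether pools with the same number were handled together. With the replicate block, 0 receptors were called in each of the 7 tests, P2rx3 at 30d against 3d had an adjusted p of 0.141, and calls over all genes were 73, 50 and 69 at 1d, 3d and 30d against 0d, in place of 60, 38 and 4. DESeq2 called 105, 107 and 184 genes there. Without a filter 177 genes were called at 30d, and limma-voom called 2. At 30d against 3d, 162 genes were called as reported, 376 with DESeq2, 358 with no filter, 273 with the compared groups fitted by themselves and 92 without robust estimation. Leaving out 1 library moved that count to between 12 (without 3d replicate 1) and 525 (without 30d replicate 1), with 22 without 3d replicate 2, and moved the counts against 0d at 1d to between 26 and 111 genes, at 3d to between 1 and 121 genes and at 30d to between 1 and 202 genes, so the shares of all genes called depend on single libraries. With 2 pools per group and a median SE of 0.097, 0.096 and 0.095 on the log2 scale over the receptors, the spread between pools limits what could be called, and P2ry12, P2ry14 and P2rx2 had the fewest counts.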
